A study of Mus musculus with 6 samples.

Results

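The 10 genes described here, of the hepatic stellate cell, the extracellular matrix and the YAP pathway, were followed in RNA sequencing of mouse liver, out of 23291 genes listed in each deposited table. They were chosen by name, with earlier results of these data known, and all 10 were found. They are Ctgf and Cyr61, the fibrillar collagen genes Col1a1, Col1a2 and Col3a1, the fibril-associated collagen gene Col14a1, Fn1, Dcn, Sparc and Rgs5. The dabigatran group consisted of C57BL/6 mice given a high fat (Western) diet for 3 months with 10 mg of dabigatran etexilate mixed into each gram. The diet group was of the same strain and received the same diet for the same time without the drug, so both groups carry the effects of the diet. Dabigatran etexilate is an oral prodrug of dabigatran, a direct thrombin inhibitor. Each group had 3 deposited tables. Those of dabigatran replicates 0 and 1 were identical for every gene and were counted as 1 library, named dabigatran replicate 1, which leaves n = 2 against n = 3 in the diet group. The sources used here give neither age nor sex.

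Stellate cells are the pericytes of the liver sinusoid. They store vitamin A when quiescent and become the main source of fibrillar collagen when activated. YAP and its relative TAZ (gene Wwtr1) are transcription co-activators restrained by the Hippo kinases, and they act through DNA-binding TEAD factors, with Ctgf and Cyr61 as their most widely used readouts. Thrombin is known, from cultured cells, to activate both stellate cells and YAP through protease-activated receptors. The comparison asks which of these transcripts differ in liver when thrombin is inhibited during the diet.

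RefSeq promoter windows (250 bases before to 50 after a start site, build GRCm38.p6) were matched for 5 of the 10 genes, Cyr61, Col1a2, Col3a1, Rgs5 and Sparc. Ctgf had no window. The start site used lay 3103 bases from the GENCODE gene start for Sparc and 804 for Col1a2, against 4, 0 and 0 for Cyr61, Col3a1 and Rgs5. The windows of Sparc and Col1a2 thus do not cover that gene start. The windows of Cyr61 and Col3a1 are shown because both genes had lower values with dabigatran and because they were the members, among these 5, whose window held the core letters of the TEAD motif, CATTCC or its reverse complement GGAATG. Capitals mark the motif. The Cyr61 window is chr3:145649936-145650235 on the minus strand, and that of Col3a1 is chr1:45311288-45311587 on the plus strand.
Cyr61: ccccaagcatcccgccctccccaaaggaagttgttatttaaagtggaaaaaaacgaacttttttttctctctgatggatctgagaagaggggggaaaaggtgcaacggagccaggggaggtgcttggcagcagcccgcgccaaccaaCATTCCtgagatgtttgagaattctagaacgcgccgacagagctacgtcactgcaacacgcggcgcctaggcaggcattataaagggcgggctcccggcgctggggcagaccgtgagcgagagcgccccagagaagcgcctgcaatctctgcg
Col3a1: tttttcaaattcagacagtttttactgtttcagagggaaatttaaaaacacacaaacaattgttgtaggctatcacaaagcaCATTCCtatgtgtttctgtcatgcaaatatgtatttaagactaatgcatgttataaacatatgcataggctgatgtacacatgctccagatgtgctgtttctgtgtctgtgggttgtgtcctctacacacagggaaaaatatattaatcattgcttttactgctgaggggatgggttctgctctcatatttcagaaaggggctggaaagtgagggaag
The motif begins at position -103 in Cyr61 and at -168 in Col3a1, counted from the start site. The same letters on either strand were in 4817 of 32851 RefSeq windows of this length (14.7%). Cyr61 also held the letters TATAAA at -25, and Col3a1 held them at -117, a motif found in 13.6% of all windows. The windows differ in composition, with 57.0% G or C and 20 CpG dinucleotides in Cyr61 against 37.7% and 0 in Col3a1. A match is a description of the letters only.

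Values are FPKM (read fragments mapped to a gene, divided by its length and by the mapped total), 1 per gene and library, as deposited by the authors. FPKM is scaled by gene length, so levels can be set side by side between genes. The number of fragments behind a value was read from the step size of the FPKM values and is the smallest whole number that the observed ratios allow. It was recovered for 8 of the 10 members, all but Fn1 and Dcn, and intervals made from it cover counting error only. Relative to diet replicate 0, depth was 0.857 and 0.772 in dabigatran replicates 1 and 2, and 0.761 and 0.967 in diet replicates 1 and 2. Differences are log2 differences of log2(FPKM + 0.5), dabigatran over diet, which understate the change of low genes. They were tested with limma across 10247 genes, those that reached 1 FPKM in 3 or more of the 5 libraries. The p-values were adjusted by the Benjamini-Hochberg method and called under 0.05.

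The stellate label was checked against marker genes. Lrat, the enzyme that makes retinyl esters for storage, had 5.19 and 4.97 FPKM in dabigatran replicates 1 and 2, against 5.45, 7.05 and 5.40 FPKM in diet replicates 0, 1 and 2. Reln, the secreted protein reelin, had 4.68 and 6.09 FPKM in the dabigatran libraries, against 4.15, 4.06 and 4.65 FPKM in the diet libraries. Quiescent stellate cell transcripts were thus present at low levels in every library, with Lrat slightly lower and Reln slightly higher with dabigatran (log2 differences of -0.20 and 0.29, limma adjusted p = 0.701 and 0.581). Acta2, the smooth muscle actin that marks activated stellate cells, was listed at 0 and 0.573 FPKM in the dabigatran libraries, against 0.251, 0 and 1.04 FPKM in the diet libraries. The 10 members are not specific to stellate cells: hepatocytes make most liver Fn1, as the source of plasma fibronectin, and Ctgf and Cyr61 are made by several liver cell types.

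Of the 9 members that passed the filter, Ctgf rose and none fell, against 13 genes (0.127%) that rose and 31 (0.303%) that fell among all 10247 tested. Of the tested members, 6 had negative and 3 had positive log2 differences, and the median of the 9 was -0.37, beside 0.02 over all tested genes. At an unadjusted p under 0.05, 3 members were higher and 3 lower, where 6.87% and 9.13% of all tested genes were. The groups did not overlap for 7 members: Ctgf, Fn1 and Rgs5 lay higher with dabigatran, and Cyr61, Col3a1, Col14a1 and Sparc lay lower. This held for 34.4% of all tested genes, with 17.2% in each direction. The members were chosen with earlier results of these data known, so setting them beside these shares is no independent test. Ctgf passed the filter through both dabigatran libraries and diet replicate 1 alone, so its passing already depended on the group in which it is high. In whole liver, fewer cells of a type and less RNA per cell cannot be told apart.

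**Figure D1:**
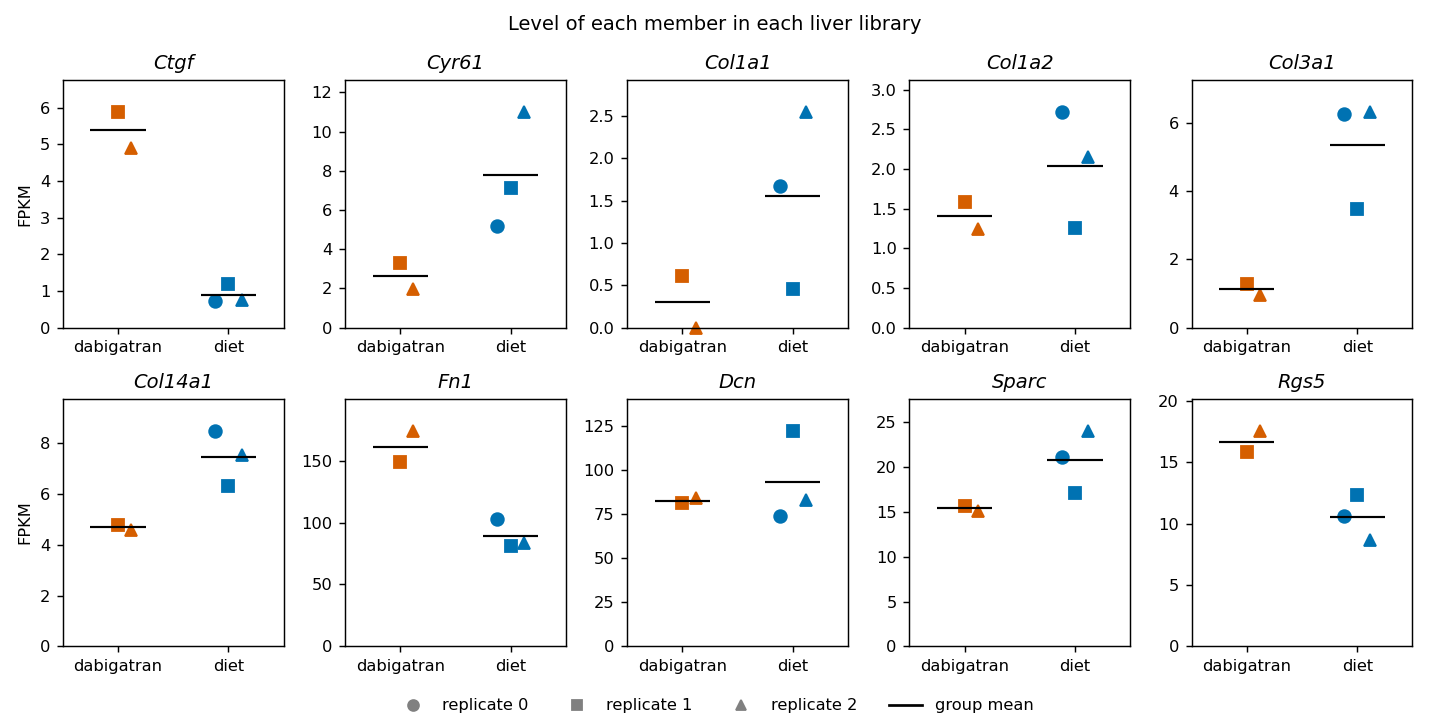
FPKM (y axes, from 0, scaled per gene) of the 10 members in the dabigatran and diet libraries; each point is 1 library, its shape gives the replicate number, and the black line is the group mean. Ctgf, Fn1 and Rgs5 lay higher in both dabigatran libraries than in any diet library, Cyr61, Col3a1, Col14a1 and Sparc lay lower, and Col1a1, Col1a2 and Dcn overlapped.

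Ctgf (now Ccn2, chromosome 10, 24595442 to 24598683, plus strand, GRCm38) encodes connective tissue growth factor, a matricellular protein that promotes matrix deposition. It had 5.87 and 4.89 FPKM in dabigatran replicates 1 and 2, against 0.719, 1.18 and 0.744 FPKM in diet replicates 0, 1 and 2. Both dabigatran libraries lay far above the 3 diet libraries, which were close together. These values rest on 28 and 21 fragments in the dabigatran libraries and on 4, 5 and 4 in the diet libraries. The gene rose 4.29-fold on the log2(FPKM + 0.5) scale, a log2 difference of 2.10 ± 0.30 (SE; 95% interval 1.40 to 2.80; limma adjusted p = 0.0404). Without the pseudocount, fragments per unit of depth were 6.31 times as many in the dabigatran libraries, with an exact binomial 95% interval of 3.37 to 12.7 for counting error.

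The call of Ctgf was close to the threshold. It was lost without diet replicate 0, diet replicate 2, dabigatran replicate 1 or dabigatran replicate 2 (adjusted p = 0.204, 0.224, 0.0566 and 0.215), while without diet replicate 1 the adjusted p was 0.0145. The log2 difference stayed between 1.98 and 2.25 in those 5 fits. Voom on the recovered fragments gave 2.54 (adjusted p = 0.111). Exons of Ctgf overlap those of Gm15270 on the opposite strand over 665 bases, 23.2% of its exonic bases, and the sources do not say whether strand was used in counting, so reads from both genes may be mixed in its value.

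Cyr61 (now Ccn1, chromosome 3, 145646976 to 145649981, minus strand), the other CCN family protein used as a YAP readout, had values in the opposite order. Its level was 3.29 and 1.96 FPKM in the dabigatran libraries, against 5.20, 7.12 and 10.99 FPKM in the diet libraries. The diet libraries spread over a wide range, and all lay above both dabigatran libraries. Behind these values were 13 and 7 fragments with dabigatran and 24, 25 and 49 on the diet alone. The log2 difference was -1.38 ± 0.34 (SE; 95% interval -2.17 to -0.58) and did not pass (limma adjusted p = 0.119), with a range of -1.69 to -1.07 when 1 library was left out. Fragments per unit of depth were 0.342 times those of the diet group, with a counting interval of 0.200 to 0.557.

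The ratio of Ctgf to Cyr61 within a library does not depend on the scaling between libraries. It was 1.79 and 2.49 in dabigatran replicates 1 and 2, against 0.138, 0.166 and 0.0677 in diet replicates 0, 1 and 2. Ctgf was thus the more abundant CCN transcript in each dabigatran library and Cyr61 in each diet library. The mean log2 ratio differed by 4.19 (exact two-sided permutation test, p = 0.2, the smallest that 3 against 2 libraries allow). In rank among the 10 members, Ctgf was at 5 in both dabigatran libraries, and at 10, 9 and 10 in diet replicates 0, 1 and 2. The ratio was chosen after the values were seen, 1 of 5 ratios computed.

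**Figure D2:**
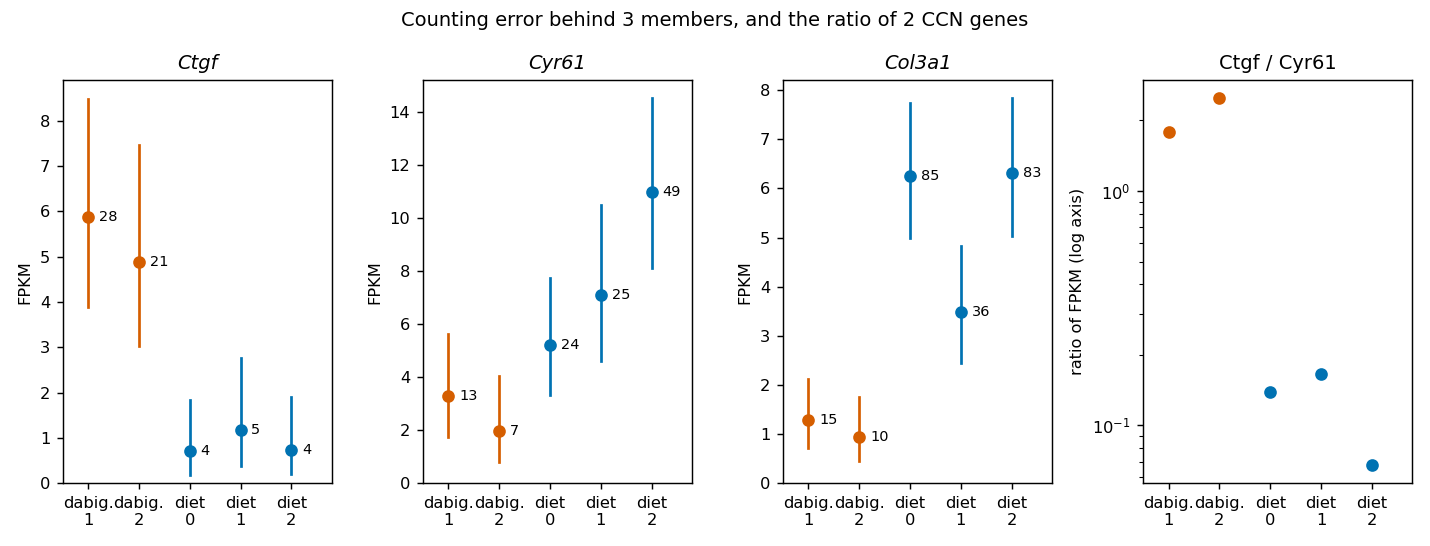
FPKM of Ctgf, Cyr61 and Col3a1 (first 3 panels, y axes from 0) in each library, with exact Poisson 95% intervals for counting error and the number of fragments beside each point, and the ratio of Ctgf to Cyr61 (last panel, log axis). The Ctgf and Col3a1 intervals of the dabigatran libraries do not meet those of the diet libraries, those of Cyr61 do, and the ratio is 1.79 and 2.49 with dabigatran, above all diet values.

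Col3a1 encodes the chain of type III collagen (chromosome 1, 45311538 to 45349706, plus strand). Its level was 1.29 and 0.953 FPKM in the dabigatran libraries, from 15 and 10 fragments, against 6.26, 3.48 and 6.32 FPKM in the diet libraries, from 85, 36 and 83 fragments. Diet replicate 1 was the lowest diet library but still lay above both dabigatran libraries. The log2 difference was -1.82 ± 0.32 (SE; 95% interval -2.56 to -1.07), which did not pass over all genes (limma adjusted p = 0.0674). It passed without diet replicate 1, at -2.07 (adjusted p = 0.0154), and ranged from -2.07 to -1.67 over the fits without 1 library. Fragments per unit of depth were 0.205 times those of the diet group, with a counting interval of 0.130 to 0.312.

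Type I collagen, made of the products of Col1a1 and Col1a2, is the main collagen of scar. Col1a1 (chromosome 11, 94936224 to 94953042, plus strand) had 0.615 FPKM in dabigatran replicate 1 and was listed at 0 in dabigatran replicate 2, against 1.67, 0.461 and 2.54 FPKM in the diet libraries. It reached 1 FPKM in diet replicates 0 and 2 alone and was not tested. With 6 and 0 fragments against 19, 4 and 28, the groups overlapped through diet replicate 1, and a count of 0 in dabigatran replicate 2, with a limit set at 3 fragments, allows up to 0.341 FPKM. Col1a2 (chromosome 6, 4504814 to 4541544, plus strand) had 1.58 and 1.24 FPKM with dabigatran, against 2.72, 1.26 and 2.15 FPKM in the diet libraries. Here too diet replicate 1 was low, between both dabigatran values. The log2 difference of Col1a2 was -0.37 ± 0.35 (SE; 95% interval -1.18 to 0.44; limma adjusted p = 0.641), and it moved between -0.62 without diet replicate 1 and -0.18 without diet replicate 0.

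Col14a1 (chromosome 15, 55307750 to 55520803, plus strand) encodes a collagen that binds the surface of fibrils, and it is a marker of stellate cells and fibroblasts. It had 4.79 and 4.58 FPKM in the dabigatran libraries, against 8.47, 6.31 and 7.52 FPKM in the diet libraries, from 65 and 56 against 134, 76 and 115 fragments. The dabigatran values lay close together and below every diet value. The log2 difference was -0.60 ± 0.22 (SE; 95% interval -1.12 to -0.09; limma adjusted p = 0.249).

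Relative to other transcripts of the same libraries, Col3a1 was low with dabigatran. Its ratio to Col1a2 was 0.813 and 0.768 in the dabigatran libraries, against 2.30, 2.76 and 2.94 in the diet libraries. Type III collagen transcripts were thus more abundant per length than Col1a2 in each diet library. In the dabigatran libraries they were slightly less abundant, from 15 and 10 fragments of Col3a1 and 17 and 12 of Col1a2. The counting intervals of Col3a1 and Col1a2 overlap there, so their order with dabigatran is within counting error. The ratio of Col3a1 to Dcn was 0.0159 and 0.0114 with dabigatran, against 0.0847, 0.0286 and 0.0761 on the diet alone. Both ratios gave p = 0.2 in an exact two-sided permutation test, the smallest possible here. The ratio of Col1a2 to Dcn overlapped between the groups.

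Fn1 (chromosome 1, 71585520 to 71653200, minus strand) encodes fibronectin, the adhesive glycoprotein of plasma and matrix. It had 149 and 174 FPKM in dabigatran replicates 1 and 2, against 103, 80.8 and 83.8 FPKM in diet replicates 0, 1 and 2. It was the most abundant member in every library but diet replicate 1, where Dcn was above it. Both dabigatran libraries lay above all diet libraries, with a log2 difference of 0.85 ± 0.18 (SE; 95% interval 0.43 to 1.28) that did not pass (limma adjusted p = 0.0863). The plasma and cellular splice forms of fibronectin share a single value in the tables.

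Hepatocyte genes lay in the same direction as Fn1. Over 16 hepatocyte markers the median log2 difference was 0.63, with 13 positive and 3 negative values, beside a median of 0.02 over all tested genes. None was called by limma, and 8 were higher at an unadjusted p under 0.05, where 6.87% of all tested genes were. The summed level of the markers was 56306 and 74434 FPKM with dabigatran, against 53367, 56072 and 58171 FPKM in the diet libraries, so the sums overlapped. None of these markers was at 0 in any library. Vtn, which encodes the plasma and matrix protein vitronectin, had 854 and 666 FPKM against 514, 626 and 573 FPKM, and the ratio of Fn1 to Vtn overlapped between the groups (exact two-sided permutation test, p = 0.4). The part of the hepatocyte transcripts in the Fn1 difference was not tested.

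Dcn (chromosome 10, 97479609 to 97518143, plus strand) encodes decorin, a small proteoglycan that binds collagen fibrils and TGF-beta. Its level was 80.9 and 83.7 FPKM with dabigatran, against 73.9, 122 and 83.0 FPKM in the diet libraries. Diet replicate 1 was the high library, and the dabigatran libraries lay within the diet range. The log2 difference was -0.14 ± 0.23 (SE; 95% interval -0.67 to 0.39; limma adjusted p = 0.806), and it was 0.07 without diet replicate 1. In the diet group, Dcn and Fn1 averaged 92.9 ± 25.5 and 89.2 ± 12.0 FPKM (SD, n = 3), which is within their spread.

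Sparc (chromosome 11, 55394500 to 55423183, minus strand) encodes osteonectin, a collagen-binding matricellular protein. It had 15.6 and 15.1 FPKM in the dabigatran libraries, against 21.1, 17.1 and 24.0 FPKM in the diet libraries. All diet libraries lay above the dabigatran ones, diet replicate 1 by a small margin. The log2 difference was -0.41 ± 0.20 (SE; 95% interval -0.88 to 0.06; limma adjusted p = 0.376).

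Rgs5 (chromosome 1, 169655501 to 169695813, plus strand) encodes a regulator of G protein signalling found in pericytes, stellate cells included. It had 15.8 and 17.6 FPKM with dabigatran, against 10.6, 12.3 and 8.67 FPKM on the diet alone, from 55 and 55 against 43, 38 and 34 fragments. Unlike Col3a1 and Col14a1, Rgs5 was higher in both dabigatran libraries than in any diet library. The log2 difference was 0.65 ± 0.21 (SE; 95% interval 0.16 to 1.14; limma adjusted p = 0.208). Rgs5 and Sparc are neighbours in the order of mean levels over all libraries. With dabigatran they averaged 16.7 ± 1.23 and 15.4 ± 0.340 FPKM (SD, n = 2), and on the diet alone 10.5 ± 1.82 and 20.7 ± 3.47 FPKM (SD, n = 3). Rgs5 was thus listed above Sparc in both dabigatran libraries and below it in all diet libraries. Their counting intervals overlapped in both dabigatran libraries and in diet replicate 1, so the order in those libraries is within counting error.

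**Figure D3:**
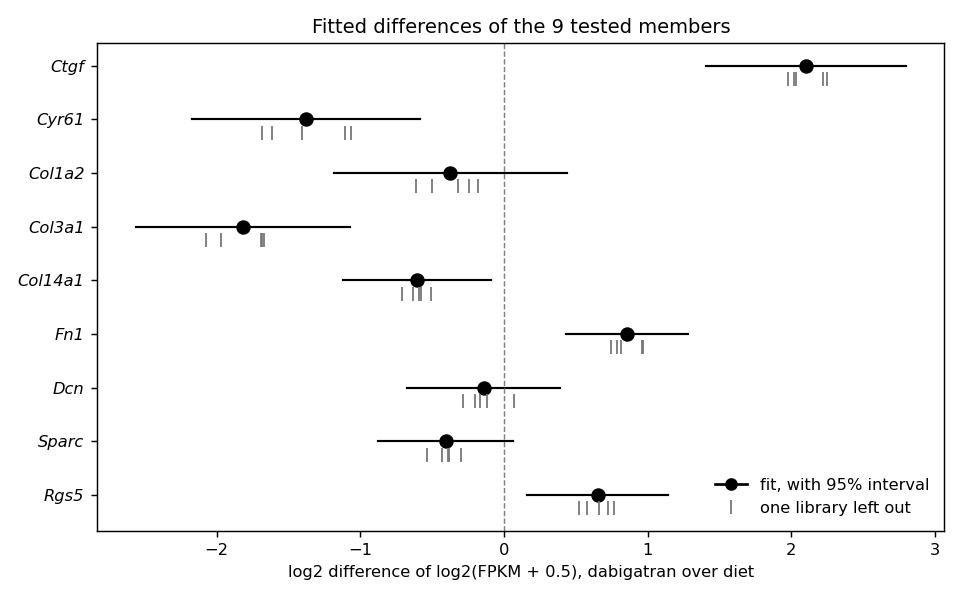
Log2 difference of log2(FPKM + 0.5), dabigatran over diet (x axis), of the 9 tested members, with its 95% interval from the limma fit (line) and the values with 1 library left out (grey ticks). Ctgf lies at 2.10, Col3a1 at -1.82 and Cyr61 at -1.38, and the single sign change over the ticks is that of Dcn, at 0.07 without diet replicate 1.

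The wider pathways were described with 17 lists of genes taken by known function or cell type, with p-values adjusted over all tested genes. These lists, too, were chosen with earlier results of these data known. Of 219 tested genes on the lists, Ctgf rose and Cfd fell (limma), 25 were higher and 20 lower at an unadjusted p under 0.05, and voom called 0 of the 170 with recovered fragments. Over all tested genes 0.429% were called in either direction. At an unadjusted p under 0.05, 6.87% of all tested genes were higher and 9.13% lower, the shares to set beside the counts of each list. Ctgf and Cyr61 themselves belong to the list of YAP and TEAD targets.

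Of 20 tested YAP and TEAD targets, Ctgf was the gene called, and the median was -0.13, with 9 positive and 11 negative values. At an unadjusted p under 0.05, 5 were higher and 4 lower. Ddah1, which breaks down an inhibitor of nitric oxide synthesis, had 19.1 and 11.4 FPKM with dabigatran, against 48.6, 34.5 and 40.9 FPKM (log2 difference -1.44, limma adjusted p = 0.0674). F3, tissue factor, the starter of coagulation, had 0.828 and 1.23 against 2.37, 2.49 and 3.18 FPKM (limma adjusted p = 0.157). The F3 values rest on 3 and 4 against 10, 8 and 13 fragments. Igfbp3, a carrier of insulin-like growth factors, lay the other way, at 9.89 and 9.37 against 7.06, 3.48 and 5.30 FPKM. The targets thus lay on both sides of 0, as Ctgf and Cyr61 did. Ankrd1, another widely used YAP target, was not tested, with 0.591 and 0 FPKM against 0.223, 0 and 0 FPKM. The other CCN genes (Nov, Wisp1, Wisp2 and Wisp3) did not reach 0.5 FPKM in any library.

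Among 19 tested Hippo pathway components, limma called 0, with 0 higher and 2 lower at an unadjusted p under 0.05, and the median was 0.06. Yap1 had 12.0 and 16.7 FPKM with dabigatran, against 16.3, 13.9 and 13.4 FPKM, so the groups overlapped. Wwtr1, which encodes TAZ, had 6.19 and 3.32 against 10.2, 7.43 and 8.23 FPKM (log2 difference -0.84, limma adjusted p = 0.220). Wwc1, an upstream activator of the Hippo kinases, had 10.1 and 9.70 against 15.6, 11.5 and 16.9 FPKM. Amotl2, an angiomotin that holds YAP in the cytoplasm, lay higher, at 7.62 and 6.02 against 4.36, 3.64 and 5.63 FPKM. Wwc1 and Amotl2 are also on the list of YAP and TEAD targets. Wwc1 is counted in both lists among the genes lower at an unadjusted p under 0.05.

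In the TGF-beta pathway, the main profibrotic signal to stellate cells, 0 of 18 tested genes were called by limma, with 1 higher and 1 lower at an unadjusted p under 0.05. The median was 0.15, with 15 positive and 3 negative values. Ski, a repressor of SMAD transcription, had 6.04 and 9.23 FPKM with dabigatran, against 4.43, 3.94 and 3.10 FPKM (log2 difference 0.89, limma adjusted p = 0.175). Tgfb1, the ligand, had 3.17 and 4.33 against 1.67, 2.47 and 4.54 FPKM and overlapped between groups.

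Of 21 collagen chain genes, 11 passed the filter and limma called 0, with 0 higher and 3 lower at an unadjusted p under 0.05 (Col3a1, Col5a3 and Col14a1). The median over the 11 was -0.37, and it was -0.02 over the 8 that are not members. Col5a3, a chain of the fibrillar collagen type V, had 2.43 and 1.13 FPKM with dabigatran, against 6.17, 2.82 and 8.26 FPKM (log2 difference -1.41, limma adjusted p = 0.194). The basement membrane chain Col4a2 lay the other way, at 1.78 and 3.45 against 1.90, 1.67 and 1.57 FPKM, with overlap. Diet replicate 1 was the lowest diet library for Col5a3 as it was for Col1a1, Col1a2, Col3a1 and Col14a1.

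Among 14 tested collagen processing genes, limma called 0, with 1 higher and 2 lower at an unadjusted p under 0.05. Serpinh1, the collagen chaperone HSP47, had 1.14 and 1.26 FPKM with dabigatran, against 3.32, 2.82 and 4.04 FPKM (log2 difference -1.18, limma adjusted p = 0.108). The Serpinh1 values rest on 5 and 5 against 17, 11 and 20 fragments. Pcolce2, an enhancer of procollagen cleavage, had 1.11 and 0.925 against 2.14, 2.19 and 1.72 FPKM (limma adjusted p = 0.292). Its values rest on 4 and 3 against 9, 7 and 7 fragments. The counting interval of its ratio per unit of depth, dabigatran over diet, was 0.185 to 1.23, which includes 1. Bmp1, the procollagen C-proteinase itself, was higher, at 29.5 and 35.9 against 20.1, 17.1 and 18.0 FPKM (log2 difference 0.81, limma adjusted p = 0.101). The median of the list was -0.07.

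The other matrix lists had medians of 0.11 (20 tested glycoproteins and proteoglycans), 0.10 (12 genes of matrix turnover) and -0.05 (14 matrix receptors), with 0 called by limma in each. At an unadjusted p under 0.05, 1, 2 and 1 genes of these lists were higher and 2, 0 and 0 lower. Lamb3, a laminin chain, had 1.08 and 1.06 FPKM with dabigatran, against 3.49, 2.56 and 3.71 FPKM. Serpine2, protease nexin, an inhibitor of thrombin and of plasminogen activators, had 25.4 and 54.2 against 12.0, 9.54 and 12.8 FPKM (log2 difference 1.67, limma adjusted p = 0.0706). Sdc1, a heparan sulphate proteoglycan of hepatocytes, had 71.1 and 51.5 against 40.9, 41.1 and 42.1 FPKM.

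**Figure D4:**
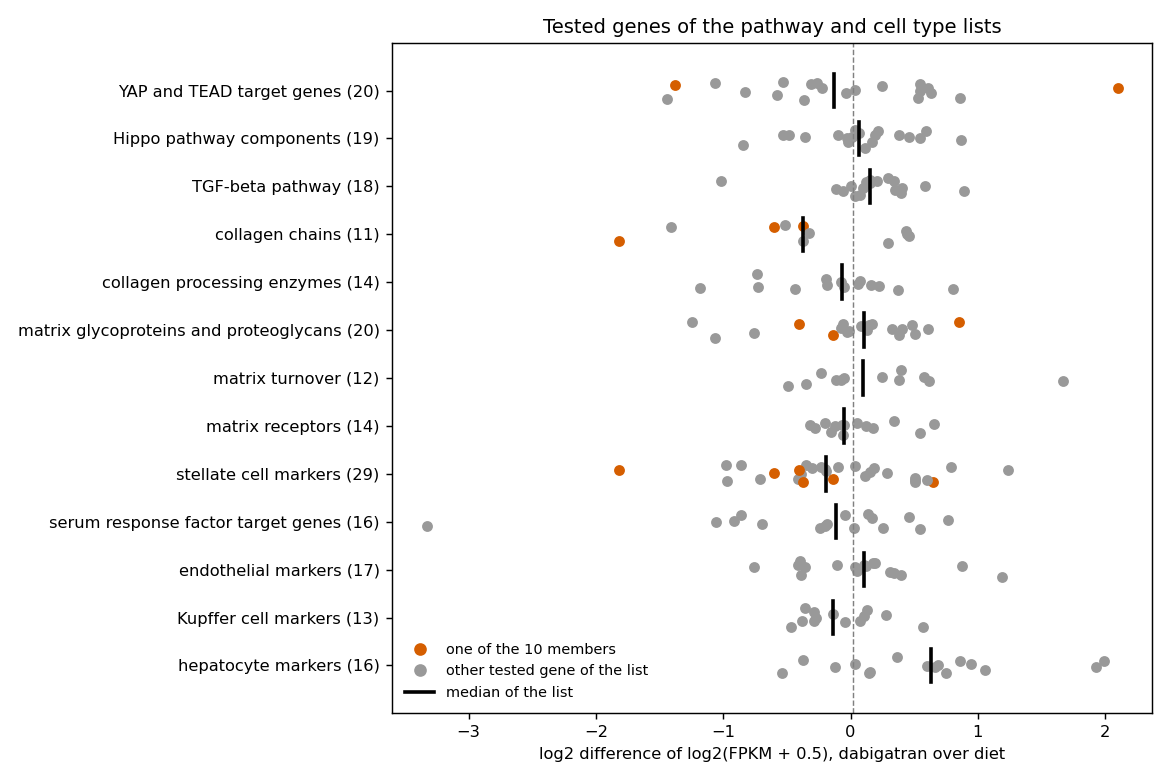
Log2 difference of log2(FPKM + 0.5), dabigatran over diet (x axis), of the tested genes of 13 lists (number tested in brackets); orange points are members, black bars list medians, and the dashed line the median of all tested genes, 0.02. Ctgf is the highest YAP and TEAD target at 2.10, Cyr61 lies at -1.38, just above the lowest, Ddah1, at -1.44, and Col3a1, at -1.82, is the lowest of the tested collagen and stellate cell genes.

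Of 29 tested stellate cell markers, 6 of the 7 members on this list included, limma called 0, with 3 higher and 4 lower at an unadjusted p under 0.05. The median was -0.19, and -0.10 over the 23 that are not members. Markers lay on both sides. Rspo3, a Wnt amplifier (11.6% of its 50-base windows are shared, mostly with Gm48159), had 2.10 and 1.40 FPKM with dabigatran, against 3.79, 4.50 and 3.36 FPKM, and the parathyroid hormone receptor gene Pth1r had 2.06 and 2.03 against 3.33, 6.17 and 4.45 FPKM. Abcc9, a channel subunit of pericytes that is often named beside Rgs5, had 8.29 and 8.06 against 4.19, 5.50 and 3.99 FPKM (log2 difference 0.79, limma adjusted p = 0.164). Summed over the 35 listed genes, the level was 280 and 311 FPKM with dabigatran and 295, 341 and 313 FPKM on the diet alone, so the totals overlapped.

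Other cells of the liver could also contribute collagen and matrix transcripts. Of 18 smooth muscle and portal fibroblast markers, 4 were tested, limma called 0 (0 in either direction at an unadjusted p under 0.05), and the summed level was 23.6 and 20.3 FPKM with dabigatran against 27.6, 29.0 and 29.5 FPKM. The sums did not overlap, and the muscle gene Cnn1 was at 0 in all libraries. Endothelial markers summed to 214 and 204 against 217, 215 and 225 FPKM (18 genes, 17 tested), with none at 0, a median difference of 0.11, and 0 called by limma (2 higher and 1 lower at an unadjusted p under 0.05). Kupffer cell markers summed to 468 and 331 against 373, 414 and 462 FPKM (13 genes, all tested), and bile duct markers to 215 and 189 against 221, 196 and 250 FPKM (14 genes, 6 tested, Cldn4 at 0 in all libraries). In these lists limma also called 0, with 0 Kupffer cell markers and 1 bile duct marker past an unadjusted p of 0.05. On the adipocyte list Cfd, adipsin, fell (limma adjusted p = 0.0110): both dabigatran libraries list it at 0, against 150, 28.3 and 47.5 FPKM. Cfd passed the filter through the diet libraries alone, so its passing already depended on the group in which it is high. The 8 adipocyte markers, 3 of them tested, summed to 19.6 and 39.1 FPKM with dabigatran against 188, 46.2 and 85.0 FPKM, without overlap. Cfd is part of these sums and makes up most of each diet sum. The lack of overlap rests on Cfd and does not describe the rest of the list. Of these 8 genes, 6 and 6 were at 0 in the dabigatran libraries, against 2, 5 and 5 in the diet libraries, and the defining markers Lep and Plin1 were at 0 in all libraries. The part of these cell types in the differences of Col3a1 and the other members was not tested.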

How the data were processed

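RNA from liver was sequenced by the submitters, and the deposited values are FPKM, per the file headers. The submitters' processing notes list R 2.15.1, Cuffdiff, CASAVA, TopHat and TopHat2 2.0.4, and the builds mm10 and GRCm38, without roles. The annotation, the use of strand and any scaling between libraries were not given in the sources used here. The design text calls the replicates mice. Dabigatran replicates 0 and 1 were identical, and both tables carried replicate number 1.

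Depth was read from the most common ratio between libraries of values under 0.3 FPKM. Whole fragments, within a relative tolerance of 2e-05, were recovered for 8261 of 10247 tested genes (80.6%), against 2.1% of 1000 genes with shifted values. Genes reaching 1 FPKM in 3 or more libraries were fitted with limma 3.58.1 in R 4.3.3 (variance trend, group as the sole term, two-sided) on log2(FPKM + 0.5). The planned filter and fit were written for distinct libraries. The steps were tested on simulated data. SDs refer to FPKM and SEs to log2 differences.

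The members and gene lists were chosen with earlier results of these data known. Named are all members, called list genes, up to 4 others per list by unadjusted p, and 3 genes nearest to Ctgf. The following were named outside that rule, after their values were seen: Lrat, Reln, Acta2, Vtn, Ankrd1, Nov, Wisp1, Wisp2, Wisp3, Yap1 and Tgfb1. Positions are from GENCODE M21 (GRCm38), promoters from RefSeq. Alternatives were other pseudocounts, filters and scalings, no variance trend, a replicate block, voom on fragments, and leaving out each library.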

Additional observations from a re-analysis of the deposited data

How the results depend on the processing

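The log2 differences of the members kept their sign in every alternative that was run, except that of Dcn, which ranged from -0.29 to 0.07 when 1 library was left out (0.0713 without diet replicate 1). The number of genes called by limma, 44, was 23 with a pseudocount of 0.1, 27 after quantile normalization, 13 with a replicate block, 11 with voom on fragments, and 0 without a filter on low values (816 higher and 1117 lower at an unadjusted p under 0.05) or without a variance trend (692 and 870). It ranged from 0 to 294 when 1 library was left out. The number of members called, 1 (Ctgf), was 0 in those 6 alternatives and with at least 5 FPKM, where Ctgf and Col3a1 were not tested, and ranged from 0 to 2 when 1 library was left out. At an unadjusted p under 0.05, 3 members were higher and 3 lower in the fits without a filter and without a variance trend. The number of listed genes called, 2, was 1 with a pseudocount of 0.1, at least 5 FPKM, quantile normalization or the replicate block, 0 without a filter, without a variance trend or with voom, and 0 to 9 when 1 library was left out.

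With the replicate number as a block, which leaves diet replicate 0 without a partner, the adjusted p of Ctgf was 0.110 and that of Col3a1 0.149. The groups share 2 numbers, and deviations of same-numbered libraries from their group mean had correlations of -0.04 (replicate 1) and -0.03 (replicate 2). With n = 2, the deviations of the dabigatran libraries are mirror images of each other. These correlations therefore cannot show whether same-numbered libraries share more than a number. Limma on the genes with recovered fragments, added after seeing the data, called 41 genes where voom called 11. Leaving out dabigatran replicate 0 was not run, as its table is that of replicate 1. With 4 to 28 fragments per library, Ctgf is limited by depth.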

Other observations

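Genes of the actin cytoskeleton that are targets of serum response factor, a transcription factor that shares many targets with YAP, overlapped between the groups for 12 of 16 tested genes and lay lower with dabigatran for the other 4, where 34.4% of all tested genes did not overlap and 17.2% lay lower. On this list limma called 0, with 0 higher and 3 lower at an unadjusted p under 0.05, and the median log2 difference was -0.12. Tpm2, a tropomyosin of smooth muscle and other contractile cells, had 0.244 FPKM in dabigatran replicate 1 and was listed at 0 in dabigatran replicate 2, against 10.4, 1.92 and 8.21 FPKM in diet replicates 0, 1 and 2 (limma adjusted p = 0.0674). Tpm2 passed the filter through the diet libraries alone, so its passing already depended on the group in which it is high. Diet replicate 1 was the lowest diet library for Tpm2, as it was for the 4 collagen members. Tpm4 had 8.10 and 5.45 against 13.3, 15.8 and 10.5 FPKM, with 15.7% of its 50-base windows shared, mostly with Gm7809.

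Among all tested genes, the 3 whose log2 values, centred on the mean of the 5 libraries, lay nearest to those of Ctgf were Sdsl, 1810010H24Rik and Hdc, at Euclidean distances of 0.486, 0.593 and 0.666 on the log2 scale. Cyr61 lay at 3.91. Sdsl had 16.1 and 19.4 FPKM with dabigatran, against 2.76, 5.70 and 3.27 FPKM on the diet alone. The points are 5 libraries in 2 groups, and all 3 genes had the same direction of difference as Ctgf. That shared direction follows from choosing the genes by nearness to Ctgf in the same libraries.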
